A study of Arabidopsis thaliana with 18 samples.

Results

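Transcripts of 10 DNA repair genes were followed from mature dried seeds into germination in Arabidopsis thaliana. The genes were chosen by identifier: the DNA ligases LIG1, LIG4 and LIG6, the poly(ADP-ribose) polymerases PARP1, PARP2 and PARP3, the end-binding protein KU80, the kinases ATM and ATR and the transcription factor SOG1. They were read from the count table by taking every transcript whose identifier carried one of the 10 gene identifiers, which gave 20 of 48268 transcripts, and by summing these to 10 of 27587 genes. The 18 libraries were RNA of whole seeds, with 3 libraries in each of 6 groups: seeds labelled ros1-4 and seeds of the Col-0 accession, each sampled dry and mature and then at stages II and IV of germination. ROS1 encodes a DNA glycosylase that removes methylated cytosine, and ros1-4 is a mutant allele of it. All plants set seed at 23 °C, the control temperature of the study. The labels give neither the hours of imbibition of each stage nor whether the replicates came from separate plants, and the methods of the study describe lots of dried seeds as biological replicates, so that p-values measure the spread between such lots. Whole seeds mix embryo, endosperm and seed coat, so fewer cells of a type and less RNA per cell cannot be told apart.

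DNA of a seed is damaged during drying and storage, and it is repaired in the first hours of imbibition, before cells divide. Poly(ADP-ribose) polymerases bind broken DNA and mark proteins around it with chains of ADP-ribose. KU80, with its partner KU70, holds broken ends for joining by LIG4, whereas LIG1 seals nicks in replication and excision repair and LIG6 is a ligase of plants known from work on seed longevity. ATM is switched on by double-strand breaks and ATR by stretches of single-stranded DNA. Both kinases signal through SOG1, a NAC transcription factor which halts the cell cycle and switches on repair genes.

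All 10 genes were found in the RefSeq annotation of the TAIR10.1 assembly, and the lengths of all 20 transcripts matched it. PARP1 (AT2G31320) lies on chromosome 2 from 13353748 to 13359750 on the minus strand, PARP2 (AT4G02390) on chromosome 4 from 1049766 to 1054186 on the plus strand and PARP3 (AT5G22470) on chromosome 5 from 7446962 to 7451049 on the plus strand. RefSeq describes the product of AT2G31320 as poly(ADP-ribose) polymerase 2 although its symbol is PARP1, and the symbols are used here. LIG1 (AT1G08130) lies on chromosome 1 from 2542663 to 2547946 on the minus strand, LIG4 (AT5G57160) on chromosome 5 from 23154965 to 23161826 on the minus strand and LIG6 (AT1G66730) on chromosome 1 from 24884681 to 24892046 on the plus strand. KU80 (AT1G48050) lies on chromosome 1 from 17723382 to 17727243 on the plus strand. ATM (AT3G48190) lies on chromosome 3 from 17801289 to 17828553 on the plus strand, ATR (AT5G40820) on chromosome 5 from 16342728 to 16353898 on the minus strand and SOG1 (AT1G25580) on chromosome 1 from 8996714 to 8999917 on the minus strand. Exons of LIG4 and ATR overlap those of a gene on the other strand (AT5G57150, a bHLH factor, and AT5G40810, a cytochrome c1), by 102 and 200 bases, which is 2.55% of the exon length of LIG4 and 2.15% of that of ATR. Whether the counting used strand is not given in the sources used here.

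The 250 bases upstream of the annotated starts of PARP2 and PARP1 are shown because PARP2 had the largest rise of the 10 and PARP1 is its relative, which rose less. They were read from TAIR10.1 at chr4:1049516-1049765 (plus strand) for PARP2 and at chr2:13359751-13360000 (minus strand) for PARP1. Each is written 5′ to 3′ and ends at the base before the gene. Capitals mark matches to ACGTG, the core of the abscisic acid response element, or to the palindrome bound by SOG1 (CTT, a spacer and AAG).
PARP2: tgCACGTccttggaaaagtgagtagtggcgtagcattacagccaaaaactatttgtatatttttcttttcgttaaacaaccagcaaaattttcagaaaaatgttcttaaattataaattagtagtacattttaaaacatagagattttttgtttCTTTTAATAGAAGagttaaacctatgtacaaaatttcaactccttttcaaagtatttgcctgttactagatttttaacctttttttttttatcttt
PARP1: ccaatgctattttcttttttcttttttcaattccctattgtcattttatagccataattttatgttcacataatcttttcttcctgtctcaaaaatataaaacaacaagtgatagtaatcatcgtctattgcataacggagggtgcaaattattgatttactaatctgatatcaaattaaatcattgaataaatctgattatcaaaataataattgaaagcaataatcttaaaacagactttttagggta
Both strands were searched, and matches are given for the windows of the members other than PARP3. The core was found in PARP2, LIG6 and KU80 and in 22.9% of 27390 promoters of the same length. The palindrome was found in PARP2 alone among these, 96 bases upstream of its start, and in 9.72% of all promoters. The RY repeat of seed genes (CATGCATG, 0.778% of promoters) and the E2F site (TTTCCCGC, TTTGGCGC, TTTCGCGC or TTTGCCGC, 1.41% of promoters) were in none of these windows. These matches describe the letters only.

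The libraries held 18737837 to 20787603 counts each, with a median of 19306864. Marker transcripts separated mature from germinating seeds, and stage II from stage IV only in part. Summed counts of 8 reserve and late embryogenesis abundant (LEA) genes were 17.2% to 19.6% of a library in ros1-4 mature seeds and 16.6% to 16.9% in Col-0 mature seeds, against at most 0.236% in germinating seeds. Summed counts of 5 genes of DNA replication were 36 to 98 in mature libraries and 4001 to 4917 in germinating ones, and PCNA1 and MCM2 were each at 0 in 1 ros1-4 mature library. The replication sums of stages II and IV overlapped in both genotypes, as did the reserve and LEA sums in Col-0 (2800 to 11987 counts at stage IV, against 4312 to 6394 at stage II). Summed counts of EXPA3 and EXPA8, expansins of growing cells, did not overlap, at 7953 to 8210 at stage IV in ros1-4, against 10715 to 11495 at stage II, and at 6659 to 6995 in Col-0, against 10590 to 11715. ROS1 itself had 1219, 1466 and 1466 counts in mature seeds labelled ros1-4, against 2578, 2455 and 2547 in Col-0. Stage II libraries gave 1286, 1256 and 1221 counts where labelled ros1-4, against 256, 273 and 281 in Col-0, and at stage IV 1134, 1203 and 1331 counts, against 296, 312 and 252 in Col-0. ROS1 mRNA was therefore higher, not lower, in the germinating libraries labelled ros1-4, and which exons these reads cover relative to the lesion of ros1-4 was not analysed here, so that ros1-4 below stands for the libraries labelled so. No replicate pair was identical. By chi-square per degree of freedom between the gene counts of replicate pairs, Col-0 stage II replicate 3 stood apart from the others of its group (19.2 and 19.1, against 5.97). Col-0 stage IV replicate 1 did so less sharply (16.4 and 17.0, against 9.34). In ros1-4 stage IV, replicates 1 and 3 differed more (14.0) than the other pairs (7.62 and 8.60).

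Each stage was compared with mature seeds of the same genotype with edgeR's quasi-likelihood test on summed counts, scaled by TMM (trimmed mean of M-values) and adjusted by Benjamini-Hochberg over all genes tested, with calls at an adjusted p-value under 0.05. The scaling matters here, as stored transcripts fill the mature libraries. Over all genes tested, the median log2 fold change was 0.33 at stage II and 0.39 at stage IV in ros1-4, and 0.17 and 0.29 in Col-0, under TMM, whereas under library size alone it was 1.68 and 1.68 in ros1-4 and 1.14 and 1.24 in Col-0. A difference from this median does not depend on the scaling, and it is given for members whose direction against mature seeds does.

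**Figure D1:**
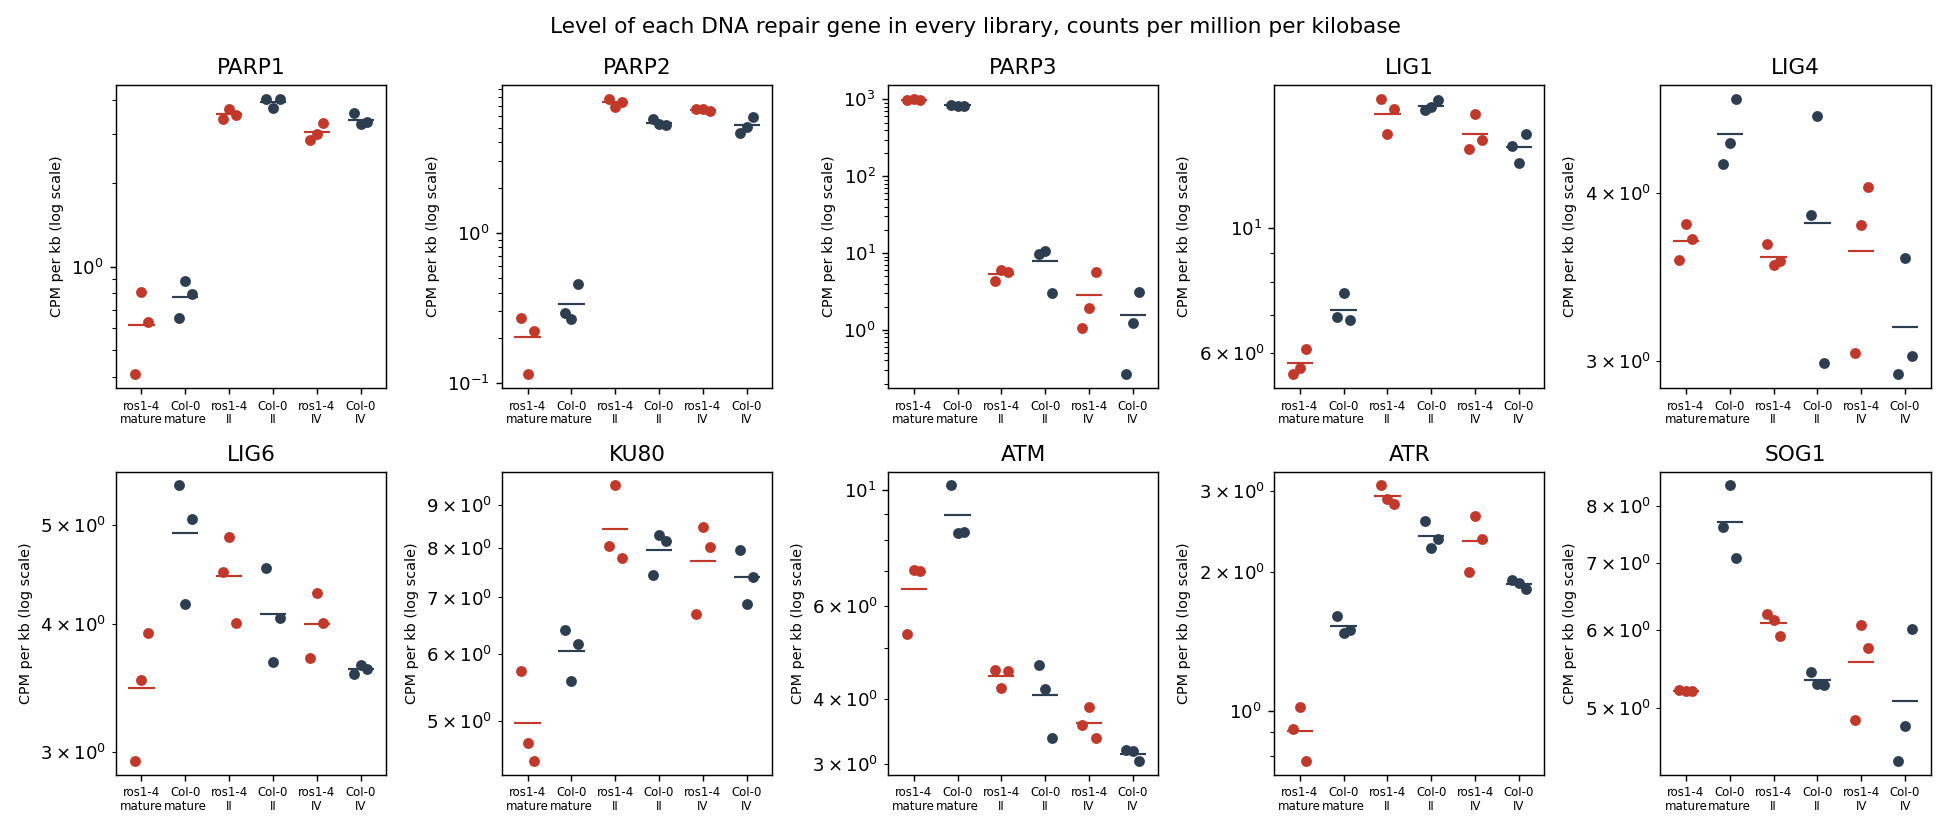
Level of each gene in all 18 libraries as counts scaled to library size (CPM) per kilobase, on log axes that differ between panels. The counts of each transcript were divided by its own length in kilobases and then summed over the gene. Points are libraries and bars are group means. PARP3 lies at 824 to 1021 CPM per kb in the mature libraries and at 10.5 or less in the germinating ones, while PARP1 and PARP2 lie higher in every germinating library than in any mature one.

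PARP3 fell and PARP1 and PARP2 rose between the dry and the germinating seed. At stage II in Col-0 PARP3 still had the highest mean per kb of these genes, at 7.77 CPM per kb. PARP2 followed at 5.39, and their libraries overlapped. PARP3 had 53340, 55191 and 52824 counts in ros1-4 mature seeds, 255, 358 and 331 at stage II and 62, 112 and 331 at stage IV. In Col-0 it had 44817, 44352 and 44772 counts in mature seeds, 537, 558 and 164 at stage II and 15, 67 and 171 at stage IV. Mature and germinating libraries did not overlap in either genotype, and within germination the replicates spread widely. In mature seeds PARP3 ranked between 78 and 89 of all genes by counts per kb in the 6 libraries, with a mean of 991 CPM per kb in ros1-4 and 833 in Col-0, against 6.46 and 8.92 for ATM, the next of the 10. The fall was called at stage II (log2 fold change of -8.89 in ros1-4, SE 0.16, edgeR adjusted p = 2.42e-15, and -7.72 in Col-0, SE 0.46, edgeR adjusted p = 1.64e-07). It was also called at stage IV (-9.73 in ros1-4, SE 0.62, edgeR adjusted p = 1.12e-08, and -10.03 in Col-0, SE 0.74, edgeR adjusted p = 3.33e-07). In CPM of the library, stage II held a mean of 0.539% of the mature level in ros1-4 and 0.933% in Col-0, and stage IV 0.288% and 0.186%.

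PARP2, known in plants for its response to DNA breaks, had 13, 5 and 10 counts in ros1-4 mature seeds, 371, 327 and 350 at stage II and 317, 322 and 314 at stage IV. In Col-0 it had 12, 11 and 19 counts in mature seeds, 254, 236 and 237 at stage II and 220, 221 and 260 at stage IV. It was the lowest of the 10 in mature seeds of both genotypes, and its rise was the largest of the 10 at both stages. The log2 fold change was 3.74 in ros1-4 (SE 0.22, edgeR adjusted p = 6.70e-10) and 3.12 in Col-0 (SE 0.20, edgeR adjusted p = 2.52e-07) at stage II, and 3.67 and 3.06 at stage IV. PARP1, the larger enzyme with zinc fingers, had 27, 53 and 41 counts in ros1-4 mature seeds, 242, 264 and 250 at stage II and 203, 214 and 234 at stage IV. Its Col-0 counts were 42, 57 and 52 in mature seeds, then 264, 241 and 268, then 244, 217 and 218. Its log2 fold change at stage II was 1.17 in ros1-4 (SE 0.18, edgeR adjusted p = 2.00e-05) and 1.37 in Col-0 (SE 0.15, edgeR adjusted p = 1.15e-05), and at stage IV it was 1.02 and 1.17. The rises of PARP1 and PARP2 and the fall of PARP3 kept their direction and their call in all 4 comparisons with mature seeds under library size alone and with each library left out.

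As a share of the counts per kb of the 3 PARP genes, PARP3 made up 99.9% in mature seeds of both genotypes. At stage II it made up 32.7% ± 4.37 in ros1-4 and 42.8% ± 16.0 in Col-0, and at stage IV 21% ± 13.9 in ros1-4 and 13.8% ± 11.2 in Col-0 (SD, n = 3 each). Every germinating library lay below every mature one in both genotypes, with an exact two-sided permutation p = 0.1, the smallest that 3 against 3 libraries allow. PARP2 took most of what PARP3 left, at 41.3% to 50.1% in ros1-4 and 27.1% to 42.5% in Col-0 at stage II. Col-0 stage II replicate 3 had a PARP3 share of 24.5%, against 50.3% and 53.7% in the other two.

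**Figure D2:**
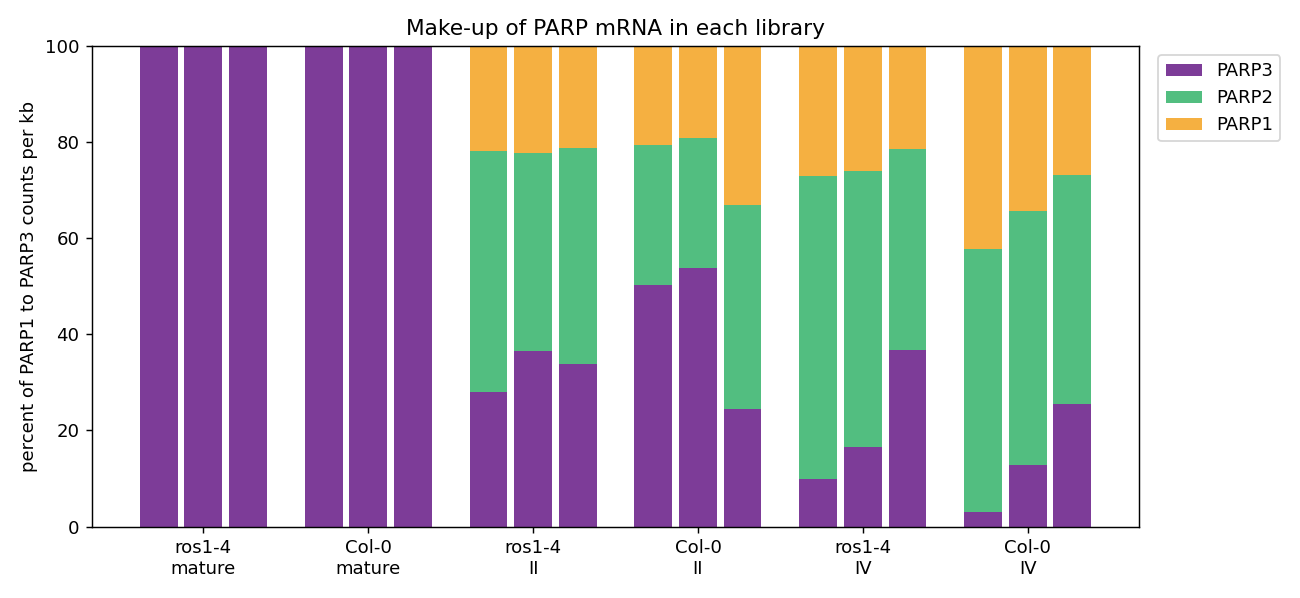
Percentage of the counts per kb of PARP1, PARP2 and PARP3 taken by each gene, with 1 bar per library grouped by genotype and stage. PARP3 fills 99.8% or more of each mature bar, and its part of the germinating bars runs from 3.13% to 53.7%.

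The spread of PARP3 within the germinating groups went with that of the stored LEA transcript EM1. At stage II EM1 had 275, 449 and 377 counts in ros1-4, against 730, 869 and 178 in Col-0. Its stage IV counts were 66, 108 and 329 in ros1-4, against 25, 101 and 233 in Col-0, in the replicate order used for PARP3. In all 4 germinating groups the library lowest in PARP3 was also the lowest in EM1, and the highest was the highest. PARP3 counts were 0.60 to 1.04 times those of EM1 in germinating libraries and 1.47 to 1.81 times in mature ones. Of the 8 reserve and LEA genes, EM1 included, 8 were lowest in the library lowest in PARP3 at both stages in ros1-4, against 6 at stage II and 7 at stage IV in Col-0. In the library highest in PARP3, 1 of 8 was highest at stage II and 7 at stage IV in ros1-4, against 8 and 7 in Col-0. These orders are by counts not scaled to library size. The exceptions included SESA1, lowest by counts in Col-0 stage IV replicate 3, where PARP3 was highest. In CPM, SESA1 was instead lowest in replicate 1 of that group, at 48.2 against 48.9 in replicate 3. EM1 was singled out after its values were seen. The seed reserve and LEA sum ran from 0.014% to 0.236% of a germinating library, and the part of these stored transcripts in the PARP3 values was not tested.

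**Figure D3:**
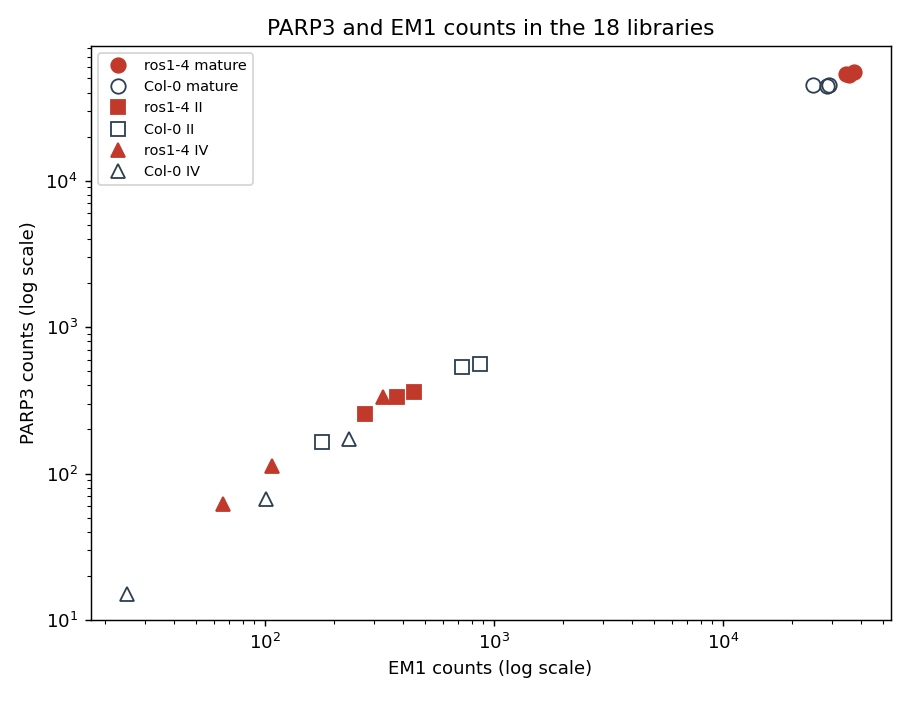
Counts of PARP3 against counts of EM1 in the 18 libraries, both on log axes. The mature libraries lie at 44352 to 55191 PARP3 counts, and the germinating ones run from 15 to 558 PARP3 counts, Col-0 stage II replicate 3 being the open square at 164.

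Among the ligases and KU80, LIG1 led in germinating seeds. It had 292, 297 and 320 counts in ros1-4 mature seeds, 964, 837 and 926 at stage II and 788, 907 and 817 at stage IV. In Col-0 it had 358, 396 and 362 counts in mature seeds, 854, 843 and 898 at stage II and 766, 691 and 772 at stage IV. Per kb it was the highest of the 10 in all 4 germinating groups, at 13.9 to 16.4 CPM per kb on average, and it did not overlap the next gene, KU80, at 7.41 to 8.44. Under TMM, LIG1 was called at stage II in Col-0 (log2 fold change 0.23, SE 0.08, edgeR adjusted p = 0.0180), where its difference from the median gene was 0.06, and the call was lost without Col-0 mature replicate 1 or 3 (edgeR adjusted p up to 0.069). In ros1-4 at stage II it stood at 0.11 (SE 0.08, edgeR adjusted p = 0.211). At stage IV it stood at 0.06 in ros1-4 (edgeR adjusted p = 0.539) and at 0.004 in Col-0 (edgeR adjusted p = 0.967). In these comparisons LIG1 lay below the median gene, with differences of -0.22 and -0.33 in ros1-4 at stages II and IV and -0.28 in Col-0 at stage IV. By library size alone all 4 log2 fold changes were 0.95 to 1.47 and passed the threshold, where the medians of all genes were 1.14 to 1.68.

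LIG4, the ligase of non-homologous end joining, had 248, 271 and 254 counts in ros1-4 mature seeds, 270, 256 and 263 at stage II and 234, 297 and 287 at stage IV. Its Col-0 counts were 289, 294 and 330 in mature seeds, then 252, 289 and 231, then 233, 239 and 216. LIG6 had 268, 318 and 353 counts in ros1-4 mature seeds, 440, 478 and 394 at stage II and 364, 421 and 393 at stage IV. In Col-0 LIG6 had 484, 372 and 459 counts in mature seeds, 412, 326 and 372 at stage II and 337, 333 and 327 at stage IV. Both genes fell under TMM in all 4 comparisons, with log2 fold changes of -1.45 and -1.33 for LIG4 and -0.99 and -1.08 for LIG6 in ros1-4, and of -1.23 and -1.40 for LIG4 and -1.23 and -1.39 for LIG6 in Col-0, at stages II and IV. The falls of LIG6 in ros1-4 turned into log2 fold changes of 0.37 and 0.21 under library size alone, of which the first passed the threshold. The difference of LIG6 from the median gene in ros1-4 was -1.32 and -1.47 under TMM. Under library size alone LIG4 stood at -0.09 and -0.04 in ros1-4 and at -0.26 and -0.45 in Col-0, and LIG6 at -0.26 and -0.44 in Col-0, and of these values those at stage IV in Col-0 passed the threshold. AT5G57150, which overlaps LIG4 on the other strand, rose under TMM by 2.16 and 2.40 in ros1-4 and by 1.15 and 1.82 in Col-0. Its change to stage II was larger in ros1-4 by 0.99 (interaction, edgeR adjusted p = 0.033). Its part in the LIG4 counts was not tested.

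KU80 had 252, 206 and 197 counts in ros1-4 mature seeds, 424, 490 and 409 at stage II and 354, 439 and 413 at stage IV. Col-0 seeds had 288, 266 and 275, then 359, 376 and 402, then 398, 338 and 354. Under TMM it fell by 0.46 and 0.53 on the log2 scale in ros1-4 at stages II and IV and by 0.53 and 0.60 in Col-0, with edgeR adjusted p-values of 0.0025, 0.0029, 0.00030 and 0.00011. With library size alone the same differences were 0.90 and 0.76 in ros1-4 and 0.44 and 0.35 in Col-0, also past the threshold, so the direction for KU80 is set by the scaling. Relative to the median gene KU80 was lower by 0.79 and 0.92 in ros1-4 and by 0.70 and 0.89 in Col-0 under TMM.

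LIG1 made up 66.4% ± 2.48 of the counts per kb of the 3 ligases at stage II in ros1-4 and 65.8% ± 1.61 at stage IV, against 44.6% ± 1.13 in mature seeds (SD, n = 3 each). In Col-0 it made up 67.6% ± 2.52 and 67.1% ± 2.47, against 43.4% ± 3.31. The share does not depend on the scaling of libraries. All germinating libraries lay above all mature ones of the same genotype, with an exact two-sided permutation p = 0.1, the smallest possible.

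ATM fell the most after PARP3. It had 963, 1252 and 1250 counts in ros1-4 mature seeds, 883, 815 and 881 at stage II and 691, 753 and 658 at stage IV. Its counts in Col-0 were 1789, 1457 and 1491 in mature seeds, 839, 733 and 614 at stage II and 598, 577 and 546 at stage IV. No germinating library reached a mature one of its genotype. The log2 fold change was -1.90 in ros1-4 (SE 0.08, edgeR adjusted p = 1.55e-11) and -2.10 in Col-0 (SE 0.12, edgeR adjusted p = 1.23e-07) at stage II, and -2.12 and -2.45 at stage IV. By library size it was -0.54 and -0.84 in ros1-4 and -1.13 and -1.5 in Col-0, all past the threshold.

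SOG1, the transcription factor downstream of both kinases, had 203, 200 and 200 counts in ros1-4 mature seeds, 260, 257 and 248 at stage II and 204, 254 and 241 at stage IV. Col-0 gave 288, 318 and 274, then 211, 200 and 207, then 178, 187 and 232. Under TMM it fell in all 4 comparisons, by 1.13 and 1.19 on the log2 scale in ros1-4 at stages II and IV and by 1.5 and 1.55 in Col-0. With library size alone Col-0 kept the fall (-0.53 and -0.60), whereas the values in ros1-4 turned to 0.23 and 0.10. The difference of SOG1 from the median gene in ros1-4 was -1.46 and -1.58 under TMM.

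ATR was called higher in ros1-4 and lower in Col-0 at stage II under TMM. It had 163, 180 and 137 counts in ros1-4 mature seeds, 591, 554 and 541 at stage II and 385, 508 and 455 at stage IV. Its Col-0 counts were 278, 255 and 264 in mature seeds, 458, 391 and 424 at stage II and 354, 339 and 326 at stage IV. Under TMM it rose at stage II in ros1-4 (log2 fold change 0.34, SE 0.11, edgeR adjusted p = 0.0093), a value 0.01 above that of the median gene, and the call was lost without ros1-4 stage II replicate 1 (edgeR adjusted p = 0.079). At stage IV in ros1-4 it stood at 0.08 (SE 0.14, edgeR adjusted p = 0.593). In Col-0 it fell by 0.31 and 0.64 on the log2 scale, and these turned to 0.66 and 0.31 under library size alone. The difference of ATR from the median gene in Col-0 was -0.48 and -0.93 under TMM.

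**Figure D4:**
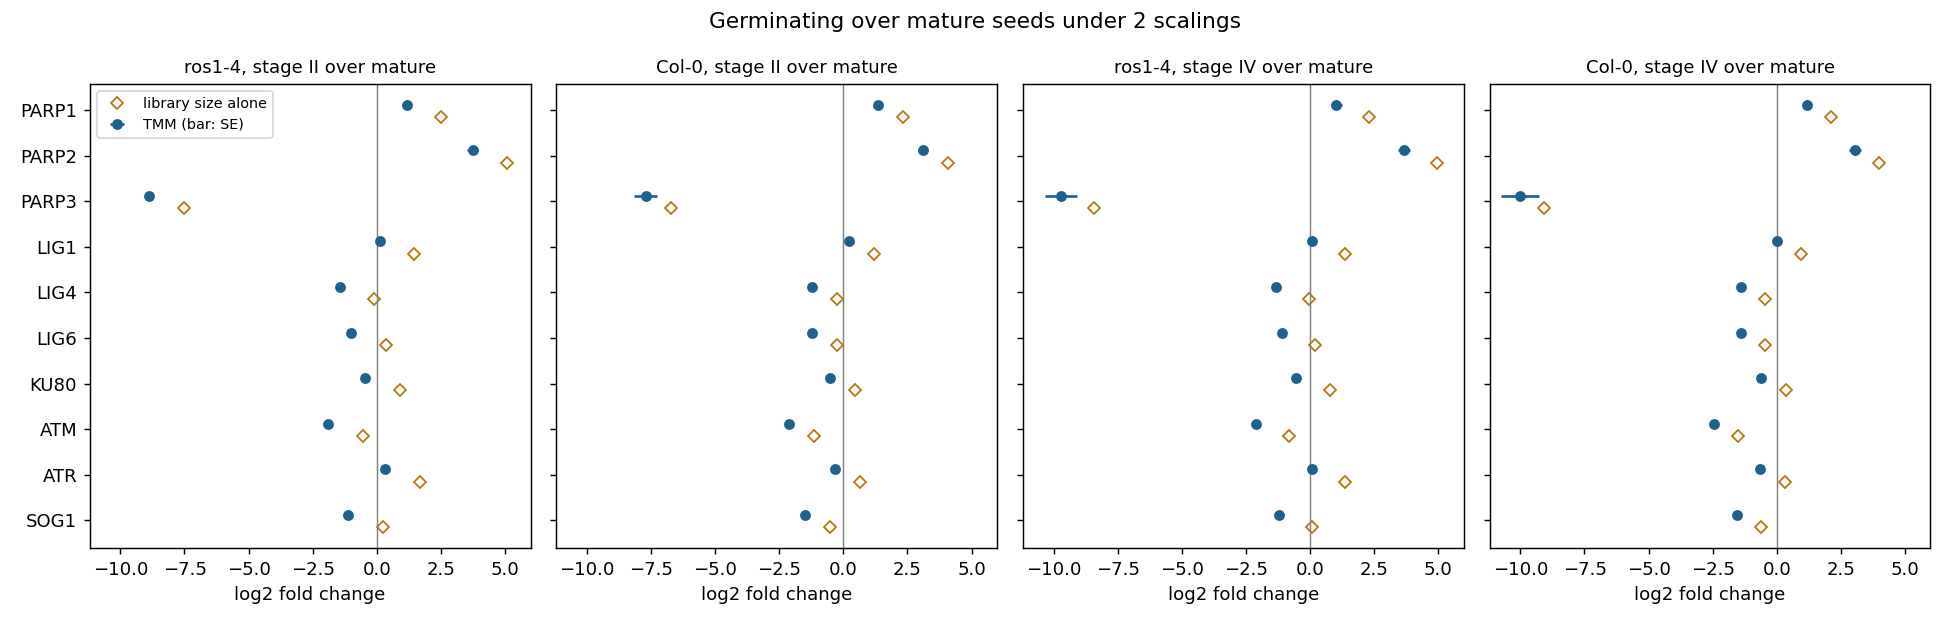
log2 fold change of each gene, germinating over mature seeds of the same genotype, under TMM (filled circles, bars are standard errors) and under library size alone (open diamonds). The diamonds lie further right, which carries KU80 across 0 in all 4 panels, ATR across 0 in Col-0 and LIG6 and SOG1 across 0 in ros1-4, while PARP1, PARP2, PARP3 and ATM stay on their side.

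Counted over the 10 genes at stage II, 3 rose and 6 fell in ros1-4 and 3 rose and 7 fell in Col-0. Of all genes tested, 89.7% passed in ros1-4 and 88.3% in Col-0. At stage IV, 2 rose and 6 fell in ros1-4, where 88.9% of all genes passed, and 2 rose and 7 fell in Col-0, where 89.7% passed. The shares of members called were thus near those of all genes. By direction, 50.3% of all genes rose and 39.3% fell at stage II in ros1-4, and 47.3% rose and 41% fell in Col-0. The shares at stage IV were 50.6% and 38.3% in ros1-4 and 49.4% and 40.3% in Col-0. The median log2 fold change of the 10 was -0.73 and -0.80 in ros1-4 and -0.88 and -1.02 in Col-0, below the medians of all genes given above. Under library size alone 7 rose and 2 fell at stage II in ros1-4 and 5 rose and 3 fell in Col-0 when 73.8% of all genes rose and 18.7% fell in ros1-4 and 66.1% rose and 23.5% fell in Col-0. At stage IV 5 rose and 2 fell in ros1-4 (72.2% and 18.6% of all genes), and 5 rose and 5 fell in Col-0 (66.1% and 24.3%).

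Between the germination stages fewer of the 10 were called than against mature seeds, as was the case over all genes. In ros1-4, ATM fell by 0.28 on the log2 scale at stage IV relative to stage II (SE 0.07, edgeR adjusted p = 0.0097), with a call in all 6 fits that left out 1 library but not in the fit of all 18 libraries (-0.23, edgeR adjusted p = 0.114), and ATR fell by 0.31 (SE 0.10, edgeR adjusted p = 0.029), with a call in 2 of 6 (those without ros1-4 stage IV replicate 2 or 3). PARP3 stood at -0.88 (SE 0.44, edgeR adjusted p = 0.132) and at -1.84 without ros1-4 stage IV replicate 3 (edgeR adjusted p = 5.67e-05), where 4 of the 10 were called. The 2 calls with all libraries compare with 39.9% of all genes. In Col-0, 4 of the 10 were called, against 38.7% of all genes. They were PARP3 (-2.31, SE 0.74, edgeR adjusted p = 0.042), ATM (-0.36, SE 0.11, edgeR adjusted p = 0.039), ATR (-0.33, SE 0.08, edgeR adjusted p = 0.016) and LIG1 (-0.23, SE 0.08, edgeR adjusted p = 0.047). Without Col-0 stage II replicate 3 there were 3 calls, and without any other single library of the 6 at most 1, with none left without Col-0 stage II replicate 1 or Col-0 stage IV replicate 2. Stage IV libraries of PARP3 in Col-0 (15 to 171 counts) overlapped those of stage II (164 to 558).

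Few of the 10 separated seeds labelled ros1-4 from Col-0. These counts were not tested against the shares of all genes, and with 10 genes they are not read as differing from them. In mature seeds 2 of the 10 were called, against 26.8% of all genes. PARP3 was higher in ros1-4 (log2 fold change 0.59, SE 0.07, edgeR adjusted p = 1.95e-05), at 52824 to 55191 counts against 44352 to 44817 in Col-0, in every fit that left out 1 library and under library size alone (0.25, edgeR adjusted p = 0.0042). In a fit of all 18 libraries, which shares 1 estimate of the spread with the germinating groups, it was 0.57 with an edgeR adjusted p = 0.492. In the same comparison 7 of the 8 reserve and LEA genes were called higher in ros1-4, EM1 at 0.71 and EM6 at 0.67, and EPR1, an extensin-like protein of the endosperm, at 1.14, while EXPA2, the other endosperm gene of the list, was called lower at -1.92. Their part in the PARP3 difference was not tested. ATR was lower in ros1-4 (-0.41, SE 0.12, edgeR adjusted p = 0.018). Its libraries did not overlap, at 137 to 180 counts in ros1-4 and 255 to 278 in Col-0, but the call was lost in 3 of 6 fits that left out 1 library (without Col-0 mature replicate 1 or 3, or ros1-4 mature replicate 3, edgeR adjusted p up to 0.080) and with DESeq2 (adjusted p = 0.052). Scaled by library size, 7 of the 10 passed, 1 higher and 6 lower, where 3.02% of all genes were higher and 48.8% lower.

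At stage II, PARP2 alone of the 10 was called higher in ros1-4, where 22.6% of all genes passed. It had 327 to 371 counts in ros1-4 and 236 to 254 in Col-0 (log2 fold change 0.35, SE 0.08, edgeR adjusted p = 0.019). The call held in 3 of 6 fits that left out 1 library, being lost without Col-0 stage II replicate 2 or ros1-4 stage II replicate 1 or 3 (edgeR adjusted p up to 0.080), and it was lost in the fit of all 18 libraries (0.35, edgeR adjusted p = 0.060). In the same comparison 6 of the 8 reserve and LEA genes were called higher in ros1-4, CRA1, a cruciferin, at 3.81 and SESA1, an albumin, at 0.85. Of the other markers, 2 of 5 genes of DNA replication and 1 of the 2 expansins of growing cells were called lower in ros1-4. Of the 2 endosperm genes 1 was called higher. The part of these markers in the PARP2 difference was not tested. At stage IV the PARP2 difference was close in size, with 314 to 322 counts in ros1-4 and 220 to 260 in Col-0 (0.34, SE 0.10, edgeR adjusted p = 0.085). None of the 10 passed at stage IV, where 8.22% of all genes did. At an unadjusted edgeR p-value under 0.05 there were 3 of 10 at stage IV, PARP2, ATR and ATM, all higher in ros1-4, and DESeq2 called 0. The share of all genes under that unadjusted threshold was not computed, so no lean of the 10 is read from this count. Without Col-0 stage IV replicate 3 PARP2 passed (edgeR adjusted p = 0.045). PARP3 at stage II depended on Col-0 replicate 3, being -0.60 with all libraries (edgeR adjusted p = 0.315) and -0.98 without it (edgeR adjusted p = 4.32e-05).

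**Figure D5:**
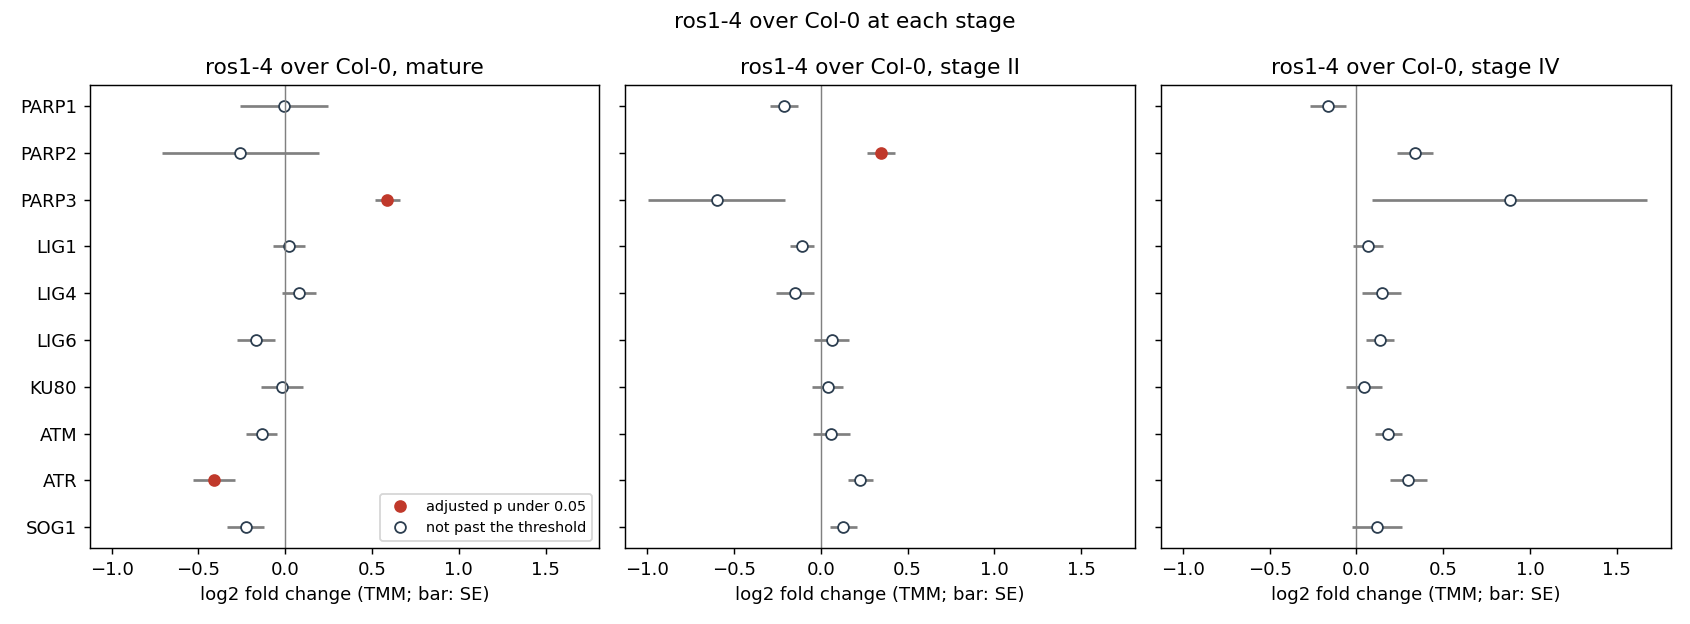
log2 fold change of each gene, ros1-4 over Col-0, in dry seeds and at stages II and IV, with standard errors as bars and filled red points where the adjusted p-value was under 0.05. ATR lies at -0.41 in mature seeds and at 0.23 and 0.30 at stages II and IV.

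Whether the change from mature seeds differed between the genotypes was tested as an interaction on 12 libraries. ATR alone of the 10 passed, at both stages. Its change to stage II was larger in ros1-4 by 0.63 on the log2 scale (SE 0.14, edgeR adjusted p = 0.0063), where 19.7% of all genes passed, and its change to stage IV by 0.70 (SE 0.17, edgeR adjusted p = 0.012), where 14.2% passed. Both tests share the mature libraries. ATR kept both calls in all 12 fits that left out 1 library and under each other setting tried, with values across the left-out libraries of 0.56 to 0.73 for stage II and of 0.58 to 0.80 for stage IV. The gene that overlaps ATR on the other strand, AT5G40810, had 346 to 390 counts in ros1-4 mature seeds and 500 to 574 in Col-0 and its interactions were 0.04 and 0.13 (edgeR adjusted p = 0.878 and 0.491). PARP3 stood at -1.20 at stage II (SE 0.41, edgeR adjusted p = 0.055), was past the threshold under DESeq2 size factors, DESeq2 itself and no filter on low counts, and reached -1.59 without Col-0 stage II replicate 3 (edgeR adjusted p = 5.57e-07). That was the 1 call in 12 fits that left out 1 library. PARP3 did not pass under library size alone (-0.79, edgeR adjusted p = 0.133), with all 18 libraries in one fit or with the replicate block. SOG1 stood at 0.34 (SE 0.13, edgeR adjusted p = 0.070), and at an edgeR adjusted p = 0.046 without ros1-4 mature replicate 1, and LIG1 at -0.14 (SE 0.11, edgeR adjusted p = 0.406). Scaled by library size, 6 of the 10 passed at each stage, all larger in ros1-4, where 38.7% and 31.4% of all genes were larger.

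Counts of single transcripts, as split by Salmon, were unsteady between replicates of 1 group. ATM had 3 transcripts, of which the second took 23.9% to 91.4% of ATM counts in ros1-4 stage IV libraries, 96.6% to 100.0% in Col-0 stage IV libraries, 16.1% to 24.9% in ros1-4 mature libraries and 33.1% to 50.0% in Col-0 mature libraries. The first transcript of KU80 was at 0 in all 3 ros1-4 mature libraries and in 1 of the Col-0 ones, and it took 50.3% or more of KU80 counts in every germinating library. In Col-0 mature seeds the same transcript ran from 0% to 100%. PARP2 counts in Col-0 mature seeds were all put on its second transcript, and in germinating seeds all 3 transcripts had counts in some libraries. These splits were not tested.

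A list of 42 other repair genes placed the 10 in their pathways. At stage II 21 rose and 15 fell of 39 tested in ros1-4, and 21 rose and 14 fell of 40 tested in Col-0. At stage IV 21 rose and 16 fell of 40 in ros1-4, and 17 rose and 16 fell of 40 in Col-0. These counts are read against the shares of all genes given above, 50.3% up and 39.3% down at stage II in ros1-4 and 47.3% and 41% in Col-0. Under library size alone 30 rose and 7 fell at stage II in ros1-4 (73.8% and 18.7% of all genes), and 26 rose and 9 fell in Col-0 (66.1% and 23.5%). At stage IV 29 rose and 7 fell in ros1-4 (72.2% and 18.6%), and 25 rose and 9 fell in Col-0 (66.1% and 24.3%). Homologous recombination held the largest rises, with 5 of its 7 genes up and 2 down in all 4 comparisons. BARD1, the partner of BRCA1, had 0 counts in the 3 ros1-4 mature libraries, against 411, 452 and 421 at stage II. That is at least 395-fold higher by library size, with 3 counts taken as the floor of the mature group. In Col-0 BARD1 had 553, 414 and 518 counts at stage II, against 1, 0 and 0 in mature seeds, a ratio of 1467 by library size (exact 95% counting interval 263 to 57980). BRCA2A, of the same pathway, had 489, 506 and 510 counts at stage II in ros1-4, against 4, 1 and 3 in mature seeds, and 606, 494 and 522 in Col-0, against 7, 4 and 5. BRCA2B had 234, 246 and 222 counts at stage II in ros1-4, against 1 in each mature library, a ratio of 216 (exact 95% counting interval 73.5 to 1049), and 289, 236 and 243 in Col-0, against 11, 3 and 10. These intervals cover counting error only.

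The falls of the list were led by SMR5 and ARP. SMR5, an inhibitor of cyclin-dependent kinases and a known SOG1 target, had 6, 4 and 7 counts at stage II in ros1-4, against 2916, 2630 and 2974 in mature seeds (log2 fold change -10.40, SE 0.15, edgeR adjusted p = 6.79e-16). The Col-0 libraries held 19, 21 and 11 counts, against 2398, 2676 and 2389 (-8.17, SE 0.16, edgeR adjusted p = 3.10e-10). Exons of SMR5 overlap those of AT1G07510 on the other strand. Other genes of the list named here also overlap a gene on the other strand: ARP (AT2G09280), BRCA2B (AT5G01620), KU70 (AT1G16960) and UVR2 (AT1G12360). SMR5 was higher in ros1-4 than in Col-0 in mature seeds (0.51, SE 0.08, edgeR adjusted p = 0.00017), and lower at stage II (-1.74, SE 0.40, edgeR adjusted p = 0.017). Under library size alone the first stood at 0.17 (edgeR adjusted p = 0.071), and the second was called in 1 of 6 fits that left out 1 library. ARP, an endonuclease of base excision repair, had 157, 160 and 160 counts at stage II in ros1-4, against 461, 541 and 491, and 152, 123 and 123 in Col-0, against 562, 542 and 567. KU70, the partner of KU80, had 403 to 426 counts at stage II in ros1-4, against 132 to 185 in mature seeds, and 316 to 369 in Col-0, against 188 to 200, with log2 fold changes of -0.17 and -0.20 that did not pass, and of 1.19 and 0.77 under library size alone, which did. Under TMM XRCC4, the partner of LIG4, rose where LIG4 fell (0.52 in ros1-4 and 0.66 in Col-0 at stage II). The median gene stood at 0.33 and 0.17 there. By library size alone LIG4 did not pass at stage II in either genotype (-0.09 in ros1-4 and -0.26 in Col-0). ATRIP, the partner of ATR, rose by 0.64 in ros1-4 and 0.56 in Col-0 under TMM.

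Between genotypes the list held 3 calls of 33 tested in mature seeds, where 26.8% of all genes passed. There was 1 call without Col-0 mature replicate 1 or 3 or ros1-4 mature replicate 3. Under library size alone there were 15, all lower in ros1-4, where 48.8% of all genes were lower and 3.02% higher. Besides SMR5 the 3 calls were MSH6, of mismatch repair (-0.36, SE 0.10, edgeR adjusted p = 0.015), and TEBICHI, the plant polymerase theta of alternative end joining (-0.34, SE 0.11, edgeR adjusted p = 0.033), both lower in ros1-4, with calls in 3 and 1 of 6 fits that left out 1 library. At stage II 9 of 40 were called, all lower in ros1-4, a share near the 22.6% of all genes. The count was 2 without ros1-4 stage II replicate 1 or 2, 3 without ros1-4 stage II replicate 3 or Col-0 stage II replicate 1, and 5 under library size alone. Among the 9 was UVR2, a photolyase, at 291 to 318 counts in ros1-4 and 547 to 552 in Col-0 (-1.04, SE 0.07, edgeR adjusted p = 0.00011). At stage IV edgeR and DESeq2 each called 0 of 39, and 10 had an unadjusted edgeR p-value under 0.05, 6 of them higher and 4 lower in ros1-4. As for the 10 members, no share of all genes under the unadjusted threshold was computed to set beside this count.

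Over the 18 libraries the transcripts most alike to PARP3, among 14089 genes averaging 5 CPM or more, were PER1 (a peroxiredoxin of dry seeds, Pearson r = 0.999), EM1 (0.999) and AT4G27530, of unknown function (0.998). Those most alike to ATM were AT4G36080, annotated as a kinase of the phosphatidylinositol kinase type (0.997), AT1G56610 (0.996) and AT1G53780 (0.995). Those most alike to LIG6 were DRL1 (0.985), AT5G08500 (0.985) and EMB2820 (0.984), and under library size alone these 3 fell to 0.76, 0.87 and 0.57, whereas those of PARP3 and ATM stayed at 0.958 or more. These r values are on log2 CPM, describe libraries in 6 groups that share their stages, and carry no test.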

How the data were processed

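The authors deposited a table of expected counts, estimated per transcript with Salmon, which the submitters' processing notes name, against the Araport11 transcriptome, for 48268 transcripts in 18 libraries of whole-seed RNA. No column belonged to other samples (0). Estimated counts were summed to 27587 genes and rounded, and 27392 genes matched RefSeq TAIR10.1. Libraries held 18737837 to 20787603 counts, and the depth limits low genes such as PARP2 in mature seeds. Groups came from the labels. Each of 9 comparisons was fitted on its own 6 libraries, and each of 2 interactions on 12, with edgeR 4.0.16 (R 4.3.3): TMM scaling, filterByExpr, glmQLFit and glmQLFTest, Benjamini-Hochberg adjustment over all genes tested and a threshold of 0.05. The study itself used DESeq2. Levels per kb use library size and the sum over transcripts of counts divided by the length of the same transcript. Shares were compared by exact permutation tests. Folds against groups at 0 used a floor of 3 summed counts. Alternatives were DESeq2 1.42.0, its size factors, library size alone, no filter, all 18 libraries in one fit, a replicate block, each library left out and, chosen after seeing the data, effective length for the shares. The code was tested on simulated data. The members and lists were chosen with earlier results of these data known. All 10 members are named, and from the wider list of 42 genes the 2 largest rises and 2 largest falls among calls whose groups did not overlap, in stage II over mature seeds of each genotype and in ros1-4 over Col-0 at each stage, with seed markers, ROS1 and the 3 transcripts most alike to PARP3, LIG6 and ATM. The partners KU70, XRCC4 and ATRIP were added after their values were seen. The promoter window of PARP3 is not reported here.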

Additional observations from a re-analysis of the deposited data

Results flagged for a closer look

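By the interaction test, the change from mature seeds differed between genotypes as labelled for ATR and, in the wider list, for 6 of 40 genes at stage II, where 19.7% of all genes passed. At stage IV it differed for ATR and 3 of 40, where 14.2% passed. The 5 of these genes that the report names are given here. ATR was called at stage II (0.63) and stage IV (0.70). SMR5 was called at stage II (-2.25, SE 0.36, edgeR adjusted p = 0.00062), its stage II libraries holding 4 to 7 counts in ros1-4 and 11 to 21 in Col-0. UVR2 was called at stage II (-1.17, SE 0.19, edgeR adjusted p = 0.00077), with 53 to 82 counts in ros1-4 mature seeds and 74 to 85 in Col-0. TEBICHI was called at stage IV (0.60, SE 0.17, edgeR adjusted p = 0.026), with a call in 8 of 12 fits that left out 1 library. BRCA2B was called at stage II (2.28, SE 0.66, edgeR adjusted p = 0.025) and stage IV (2.58, SE 0.71, edgeR adjusted p = 0.024), values that rest on 3 summed counts in ros1-4 mature seeds, with calls in 7 of 12 such fits each.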

How the results depend on the processing

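The scaling decided the most. Under library size alone KU80 turned to 0.44 and 0.35 in Col-0 (stages II and IV over mature) and 0.90 and 0.76 in ros1-4, ATR to 0.66 and 0.31 in Col-0, LIG6 to 0.37 and 0.21 and SOG1 to 0.23 and 0.10 in ros1-4, and LIG1 to -0.31 in ros1-4 over Col-0 mature seeds. MSH6 turned to 0.62 and 0.67 in ros1-4 and 0.087 in Col-0 at stage II, and TEBICHI to 0.96 and 0.86 and to 0.11. Calls among the 10 then numbered 7 (against 2 with TMM on the libraries of each comparison, which is the value given in brackets from here on) between genotypes in mature seeds, 2 (1) at stage II and 6 (1) in each interaction, and in the wider list 15 (3), 5 (9), 19 (6) and 15 (3). Under that scaling 48.8% of all genes were lower in ros1-4 mature seeds, and 38.7% and 31.4% were larger in ros1-4 in the interactions. With DESeq2, Col-0 stage IV over II gave 2 calls (4), mature seeds 1 and the stage II interaction 2, as did DESeq2 size factors and no filter. With all 18 libraries in one fit there was 1 call for ros1-4 stage IV over II (2), 1 in mature seeds and 0 at stage II, and in the wider list 3 (9), 6 in mature seeds and 3 (0) at stage IV. Same-numbered libraries had correlations of -0.13 to 0.14 between their deviations from group means. The labels do not say whether a number marks a shared lot, and with 3 libraries per group these correlations cannot exclude it. With the replicate block Col-0 stage IV over II gave 2 calls, the wider list at stage II between genotypes 3, and of 110 single values 2 lost and 1 gained a call. With each library left out, calls among the 10 ran from 9 to 10 and 9 to 9 in Col-0 and from 8 to 9 and 8 to 8 in ros1-4 against mature seeds, from 0 to 3 in Col-0 and 1 to 4 in ros1-4 between stages, from 1 to 2, 0 to 3 and 0 to 1 between genotypes (mature, II, IV), and from 1 to 2 and 1 to 1 in the interactions. In the wider list they ran from 34 to 35 and 29 to 33, 34 to 37 and 33 to 37, 7 to 11 and 3 to 16, 1 to 3, 2 to 13 and 0 to 1, and 3 to 7 and 0 to 5, in the same order. The highest of these, 16 and 13, came without ros1-4 stage IV replicate 3 and Col-0 stage II replicate 3.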
